A study of Mus musculus with 8 samples.

Results

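The sebaceous gland lipid genes described here are 10 genes picked by symbol: Scd1, Scd3, Mgst1, Cidea, Elovl3, Fasn, Dgat2, Soat1, Plin2 and Mc5r. All 10 were found among the 19126 genes of the deposited table, and all 10 passed the filter on low counts that left 15096 genes for testing. The tissue was whole left ear from 8 mice of the inbred strain C57BL/6, aged 6 to 8 weeks, in groups of 4. All mice were sensitised with 25 µL of 0.3% dinitrofluorobenzene (DNFB), a contact allergen, and on day 6 were challenged on that ear with 10 µL of 0.25% DNFB, which models allergic contact dermatitis. Mice of the inhibitor group were given MMP-9-IN-1, a blocker of matrix metalloproteinase 9, at 10 mg/kg by the intraperitoneal route, and vehicle mice were given its solvent alone (10% DMSO, 40% PEG300, 50% PBS), and the procedure went on for 4 days. Mice carry the numbers 1 to 4 within their group, and p-values measure the spread between their libraries. Ears without DNFB were not analysed here, so both groups carry the inflammation, and whole ears hold skin, cartilage, muscle and fat besides the gland.

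Sebaceous glands sit on hair follicles and release sebum when their cells fill with lipid and burst. Sebocytes make fatty acids, lengthen and desaturate them, and join them to glycerol, cholesterol or fatty alcohols as triglycerides, sterol esters and wax esters, which are kept in droplets until the cell breaks down. In mice, loss of Scd1 leads to shrunken sebaceous glands and loss of hair, and Mc5r, a melanocortin receptor, is needed for normal sebum output.

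For 7 of 10 members vehicle mice 1 and 2 were the 2 lowest libraries, as they were for 22% of all genes tested. These were Scd1, Mgst1, Cidea, Elovl3, Fasn, Soat1 and Mc5r. Vehicle mice 3 and 4 were 1.575-fold (Mgst1) to 7.80-fold (Mc5r) higher for them. For Scd3 and Dgat2 an inhibitor library was among the 2 lowest. For the 7 genes each of the 4 inhibitor ears was thus above both vehicle mouse 1 and vehicle mouse 2. In bulk tissue, fewer cells of a type and less RNA per cell cannot be told apart. Plin2, a droplet coat protein gene, ran the other way and was highest in vehicle mice 1 and 2. Between the groups of 4, no member passed the test, as no gene did (0%), and in 0 of 10 members did the inhibitor and vehicle libraries separate, beside 1.19% of all genes tested.

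Promoter sequence is shown for the 3 members whose searched RefSeq windows held a CCAAT box. Among them, Soat1 and Fasn were low in vehicle mice 1 and 2 while Plin2 was high there. Of the 10 members, 5 had an entry in the RefSeq promoter table of build GRCm38.p6 (Scd3, Mgst1, Fasn, Soat1 and Plin2), which is not the GRCm39 build named for the reads. Each window covers 250 bases before and 50 bases from the start of transcription that the table takes, on the gene's strand. Both strands were searched for 6 motifs, and capitals mark the matches: the CCAAT box, the GC box GGGCGG, the E-box CACGTG, the TATA box TATAAA, the SREBP-type element TCACNCCAC and the direct repeat named DR1 that PPAR and RXR bind. Fasn lies on chromosome 11 (chr11:120824498-120824797, minus strand), Soat1 on chromosome 1 (chr1:156474279-156474578, minus strand) and Plin2 on chromosome 4 (chr4:86670010-86670309, minus strand).
Fasn: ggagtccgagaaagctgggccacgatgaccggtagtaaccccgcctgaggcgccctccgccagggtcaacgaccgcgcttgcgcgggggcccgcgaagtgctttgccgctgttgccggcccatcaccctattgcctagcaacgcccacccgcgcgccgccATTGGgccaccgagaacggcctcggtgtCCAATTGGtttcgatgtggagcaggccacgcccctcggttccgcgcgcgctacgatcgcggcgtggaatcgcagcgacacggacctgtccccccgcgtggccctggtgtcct
Soat1: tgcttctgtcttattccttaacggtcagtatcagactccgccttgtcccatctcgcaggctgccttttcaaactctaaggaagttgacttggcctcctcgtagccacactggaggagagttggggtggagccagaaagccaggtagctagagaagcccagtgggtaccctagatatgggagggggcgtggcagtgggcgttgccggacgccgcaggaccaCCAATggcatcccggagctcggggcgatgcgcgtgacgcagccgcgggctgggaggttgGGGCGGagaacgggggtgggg
Plin2: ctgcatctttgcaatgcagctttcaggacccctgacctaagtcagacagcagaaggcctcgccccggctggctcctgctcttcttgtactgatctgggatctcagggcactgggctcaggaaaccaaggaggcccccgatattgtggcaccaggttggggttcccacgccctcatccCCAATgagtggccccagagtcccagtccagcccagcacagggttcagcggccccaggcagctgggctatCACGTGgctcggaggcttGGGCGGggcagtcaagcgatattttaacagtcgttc

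Fasn held 3 CCAAT boxes, of which the one on the gene's strand begins 62 bases before the start and those on the other strand, read as ATTGG, 90 and 59 bases before it, so that the boxes at 62 and 59 overlap. Soat1 held 1 CCAAT box, 30 bases before the start, and 1 GGGCGG box at base 30 after it. Plin2 held 1 CCAAT box 73 bases before the start, 1 CACGTG box 4 bases before it and 1 GGGCGG box at base 15 after it. Of 32851 windows of the same length outside chr18, 37.4% held a CCAAT box, 35.7% a GC box, 13.6% a TATA box and 7.15% this E-box. Of the other members with a searched entry, 1 of 2 Mgst1 windows held GGGCGG and the Scd3 window held none of the 6 motifs. The SREBP-type element was in 1.24% and the DR1 repeat in 0.0396% of these 32851 windows. Neither these nor the TATA box had a match in the members' searched windows. The boxes at these letters are a description of the sequence. The 3 genes shown were picked for a CCAAT box, so its presence in low and in high genes was fixed by that choice. Neither window of Mgst1, also low in vehicle mice 1 and 2, held a CCAAT box.

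The 8 libraries held 13863145 to 18512200 counted reads. Of these, vehicle mice 1 and 2 stood apart. The summed level of 6 neutrophil markers was 3299 and 2932 CPM (reads scaled to library size with edgeR's TMM factors) in these libraries, 1789 in inhibitor mouse 2, and 130 to 252 in the other 5. Vehicle mice 1 and 2 were the lowest libraries of the 8 for 22% of the 15096 genes tested and the highest for 20.1%, so libraries standing in this order was common across all genes. The members' fold changes are therefore given also for mice 1 and 2 and for mice 3 and 4 of each group. That division follows the mouse numbers but was drawn with the data known, and the labels do not say what a number marks beyond the mouse.

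Fatty acid synthesis and desaturation come first in the pathway. Fasn, the fatty acid synthase, builds palmitate. It stood at 220, 247, 393 and 352 CPM in vehicle mice 1 to 4 and at 386, 281, 393 and 263 CPM in inhibitor mice 1 to 4. The vehicle ears of mice 1 and 2 were the lowest of the 8 and the groups overlapped. The log2 fold change of inhibitor against vehicle was 0.13 (SE 0.24, 95% interval -0.42 to 0.68, edgeR adjusted p = 0.999, n = 4 per group), with 331 ± 68.2 CPM for the inhibitor and 303 ± 82.5 CPM for vehicle (mean ± SD).

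Scd1, the stearoyl-CoA desaturase of skin that makes oleate and palmitoleate, was the most abundant member per transcript length in 6 of 8 libraries. It stood at 944, 1169, 5690 and 4973 CPM in vehicle mice 1 to 4 and at 5194, 3589, 5211 and 4060 CPM in inhibitor mice 1 to 4. Its share of all reads was 0.0847% and 0.0952% in vehicle mice 1 and 2 and 0.349% to 0.617% in the other 6 libraries. By read count it was gene number 152 and 147 in vehicle mice 1 and 2, number 4 in vehicle mice 3 and 4, and number 4 to 12 in the inhibitor libraries. Vehicle libraries thus spread over 6.03-fold and enclosed the 4 inhibitor libraries, which spread over 1.45-fold. Inhibitor against vehicle gave a log2 fold change of 0.50 (SE 0.58, 95% interval -0.83 to 1.83, edgeR adjusted p = 0.999).

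Scd3, a neighbouring desaturase gene of the same cluster that is known mainly from skin, was the least abundant member on average at 3.05 ± 1.73 TPM (the authors' unit, which also scales by transcript length; SD, n = 8). It stood at 3.83, 5.303, 7.02 and 5.703 CPM in vehicle mice 1 to 4 and at 14.3, 6.59, 4.29 and 5.33 CPM in inhibitor mice 1 to 4. The high library was inhibitor mouse 1, and the other 7 did not separate by group. On the log2 scale the groups differed by 0.48 (SE 0.40, 95% interval -0.45 to 1.40, edgeR adjusted p = 0.999), and -0.018 without inhibitor replicate 1.

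Reads of the desaturase genes can be shared between copies. In GENCODE M21 transcripts, 4.56% of the 50-base windows of Scd1 and 6.57% of those of Scd3 also occurred in another gene, mostly in each other or in Scd2. Deposited counts of Scd1, Scd3 and Elovl3 were not whole in all 8 libraries and those of Soat1 in 7, while those of the other 6 members were whole in every library within a tolerance of 1e-09. A deposited count that is not whole is an estimate, so the values of Scd3, with 56.72 to 209.1 estimated reads beside 14039 to 111013 of Scd1, are uncertain. With the counts of the 4 Scd genes summed, the summed genes gave 0.48 on the log2 scale (SE 0.56, edgeR adjusted p = 0.999). In TPM, Scd3 was 0.565% and 0.637% of Scd1 in vehicle mice 1 and 2, 0.173% and 0.161% in vehicle mice 3 and 4, and 0.386%, 0.257%, 0.115% and 0.183% in inhibitor mice 1 to 4. The ratio was highest in vehicle mice 1 and 2, where Scd1 was low, and the groups overlapped. The log2 ratio differed by -0.57 between inhibitor and vehicle (exact two-sided permutation p = 0.457, where 4 against 4 can go down to 0.0286). Mice 1 and 2 alone gave -0.93, mice 3 and 4 alone -0.20, and leaving out 1 library -0.89 to -0.23 (lowest without vehicle mouse 4, highest without vehicle mouse 2). These divisions were added after seeing the data, as was a test within same-numbered pairs (exact sign-flip p = 0.25).

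**Figure D1:**
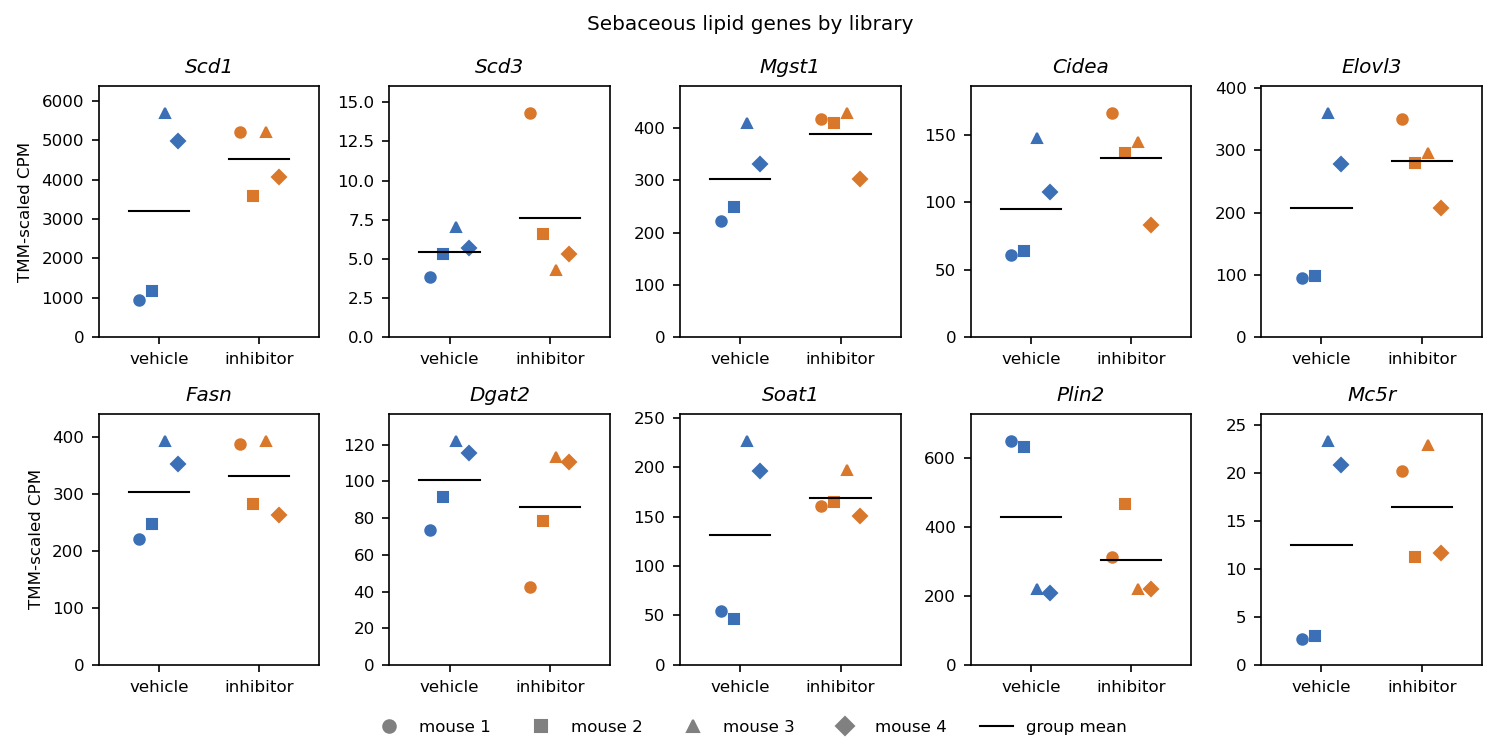
TMM-scaled CPM (vertical axes, linear from 0) of the 10 sebaceous lipid genes in 4 vehicle (blue) and 4 inhibitor (orange) libraries, with 1 symbol per mouse number and a line at each group mean. Circles and squares of the vehicle group (mice 1 and 2) lie lowest for Scd1, Mgst1, Cidea, Elovl3, Fasn, Soat1 and Mc5r and highest for Plin2.

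Elovl3, an elongase that lengthens saturated and monounsaturated fatty acids to very long chains in sebocytes and brown fat, followed Scd1. It stood at 95.6, 98.0, 360 and 278 CPM in vehicle mice 1 to 4 and at 349.6, 279.9, 296 and 207 CPM in inhibitor mice 1 to 4. All 4 inhibitor libraries exceeded vehicle mice 1 and 2, and 3 of them lay within the range of vehicle mice 3 and 4. The fitted log2 difference was 0.44 (SE 0.45, 95% interval -0.59 to 1.48, edgeR adjusted p = 0.999).

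The acyltransferases that store fatty acids as neutral lipid did not share 1 profile. Soat1 joins cholesterol to fatty acids as sterol esters, and its loss in mice alters sebum and hair. It stood at 54.6, 46.2, 227 and 196 CPM in vehicle mice 1 to 4 and at 161, 165, 197 and 151 CPM in inhibitor mice 1 to 4. The inhibitor libraries were close together, spread over 1.31-fold, and lay between the vehicle pairs or at the upper one. Its estimate, inhibitor over vehicle on the log2 scale, was 0.36 (SE 0.51, 95% interval -0.80 to 1.53, edgeR adjusted p = 0.999).

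Dgat2, which adds the last fatty acid of a triglyceride, stood at 73.8, 91.7, 122 and 115 CPM in vehicle mice 1 to 4 and at 42.5, 78.6, 113 and 110.4 CPM in inhibitor mice 1 to 4. Its lowest library was inhibitor mouse 1, in which Scd1, Cidea and Elovl3 were high. Mice 3 and 4 exceeded mice 1 and 2 in both groups, by 1.44-fold with vehicle and 1.85-fold with the inhibitor. Inhibitor against vehicle gave a log2 fold change of -0.23 (SE 0.31, 95% interval -0.95 to 0.49, edgeR adjusted p = 0.999), and 0.00033 without inhibitor replicate 1.

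The droplet protein genes Plin2 and Cidea ran in opposite directions. Plin2, or perilipin 2, coats lipid droplets in most cell types, sebocytes and lipid-laden macrophages among them. It stood at 649, 631, 220.4 and 209 CPM in vehicle mice 1 to 4 and at 314, 466, 219.5 and 220.4 CPM in inhibitor mice 1 to 4. Mice 3 and 4 of both groups fell between 209 and 220.4 CPM, and mice 1 and 2 of both groups were above them. On the log2 scale the groups differed by -0.49 (SE 0.46, 95% interval -1.53 to 0.56, edgeR adjusted p = 0.999).

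Cidea promotes the growth of lipid droplets and is known from brown fat, mammary gland and sebocytes. It stood at 60.9, 63.6, 148 and 108 CPM in vehicle mice 1 to 4 and at 166, 136, 145 and 83.5 CPM in inhibitor mice 1 to 4. All inhibitor libraries exceeded vehicle mice 1 and 2, and 1 of them, mouse 4, was below vehicle mouse 4. The fitted log2 difference was 0.48 (SE 0.33, 95% interval -0.28 to 1.25, edgeR adjusted p = 0.999). The ratio of Scd1 to Plin2 in TPM was 0.537 and 0.687 in vehicle mice 1 and 2, 9.49 and 8.69 in vehicle mice 3 and 4, and 6.07, 2.83, 8.74 and 6.81 in inhibitor mice 1 to 4. Vehicle mice 1 and 2 were thus the libraries in which Plin2 exceeded Scd1.

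Mc5r, a G protein-coupled receptor for melanocortin peptides on sebocytes, had the widest spread. It stood at 2.69, 2.96, 23.3 and 20.8 CPM in vehicle mice 1 to 4 and at 20.1, 11.2, 22.8 and 11.7 CPM in inhibitor mice 1 to 4. The vehicle values rest on 40 and 43 reads in mice 1 and 2 and on 455 and 408 reads in mice 3 and 4. Each inhibitor library was above vehicle mice 1 and 2 and below vehicle mouse 3, and mouse 3 of the inhibitor group was above vehicle mouse 4. Its estimate, inhibitor over vehicle on the log2 scale, was 0.40 (SE 0.72, 95% interval -1.25 to 2.05, edgeR adjusted p = 0.999).

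Mgst1, a membrane-bound glutathione transferase that is a common marker of mouse sebocytes, had the narrowest spread after Fasn. It stood at 221, 249, 409 and 332 CPM in vehicle mice 1 to 4 and at 417, 409, 429 and 301 CPM in inhibitor mice 1 to 4. Of the inhibitor libraries, 3 lay between 409 and 429 CPM and mouse 4 lay below vehicle mouse 4. Inhibitor against vehicle gave a log2 fold change of 0.36 (SE 0.23, 95% interval -0.16 to 0.88, edgeR adjusted p = 0.999).

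Per gene length, the members ranged over orders of magnitude. Averaged over the 8 libraries, Scd1 stood at 1324 ± 709 TPM, Mgst1 at 606 ± 190.5, Plin2 at 306 ± 114, Elovl3 at 218 ± 104.5 and Cidea at 164 ± 69.4 TPM (SD, n = 8). Dgat2 followed at 67.1 ± 24.8, Fasn at 53.6 ± 17.3, Soat1 at 52.4 ± 26.1, Mc5r at 6.07 ± 3.86 and Scd3 at 3.05 ± 1.73 TPM. Cidea exceeded Dgat2 and Soat1 exceeded Mc5r in 8 of 8 libraries, whereas Plin2 exceeded Elovl3 in 4 of 8 and Fasn exceeded Soat1 in 3 of 8. The order changed in vehicle mice 1 and 2, where Plin2 led at 494 and 422 TPM, Mgst1 was next at 327 and 326 TPM, and Scd1 followed at 265 and 290.3 TPM.

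Over the 10 members together, edgeR's quasi-likelihood test called 0 as higher and 0 as lower at a Benjamini-Hochberg adjusted p of 0.05, and it called 0 of all 15096 genes (0%). At an unadjusted p under 0.05 there were 0 members, against 157 of all genes (1.04%). By DESeq2 the count was 0 and 293 genes had an unadjusted p under 0.05, and by limma-voom it was 0 and 296 genes. In 0 of 10 members did the groups not overlap, against 180 of all genes (1.19%), of which 0.735% were higher and 0.457% lower with the inhibitor. The estimate was higher with the inhibitor in 8 of 10 members and lower in Dgat2 and Plin2, beside 54.5% of all genes with a higher estimate. The median log2 fold change was 0.38 over the members and 0.026 over all genes tested. Vehicle mice 1 and 2 were the lowest libraries of the 8 for 7 members (Scd1, Mgst1, Cidea, Elovl3, Fasn, Soat1 and Mc5r) and the highest for Plin2, where the shares over all genes were 22% and 20.1%. The members were chosen with earlier results of these libraries known, so these counts are a description.

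Within the mouse numbers, the estimates of the members took different values. Among mice 1 and 2 of each group, the estimate was higher with the inhibitor for the 8 members other than Dgat2 and Plin2, as for 52.8% of all genes. It was 2.05 (SE 0.29) for Scd1, 2.46 (SE 0.37) for Mc5r, 1.69 (SE 0.19) for Elovl3, 1.69 (SE 0.17) for Soat1 and 1.28 (SE 0.16) for Cidea on the log2 scale. For the other members it was 1.18 (SE 0.46) for Scd3, 0.81 (SE 0.17) for Mgst1, 0.51 (SE 0.22) for Fasn, -0.45 (SE 0.35) for Dgat2 and -0.72 (SE 0.27) for Plin2. Scd1, Mc5r, Elovl3, Soat1 and Cidea each had an edgeR adjusted p of 0.202 with 2 libraries a group, where 0 genes passed (0%). An unadjusted p under 0.05 was found for 7 of 10 members (all but Scd3, Fasn and Dgat2) and for 16.9% of all genes. Among mice 3 and 4 the estimate was -0.22 (SE 0.22) for Scd1, -0.37 (SE 0.35) for Mc5r, -0.36 (SE 0.25) for Elovl3, -0.299 (SE 0.19) for Soat1, -0.18 (SE 0.33) for Cidea, -0.43 (SE 0.23) for Scd3, -0.040 (SE 0.23) for Mgst1, -0.200 (SE 0.24) for Fasn and -0.11 (SE 0.11) for Dgat2. Thus 9 of 10 members had a lower estimate, Plin2 being the exception at 0.013 (SE 0.11). No gene passed among mice 3 and 4 (0%), 3.65% of all genes and 0 members had an unadjusted p under 0.05, and 51.4% of all genes had a higher estimate. With the mouse number as a block over all 8 libraries, 0 genes passed in edgeR, 4.8% of all genes and 0 members had an unadjusted p under 0.05, and 54.4% of all genes and 8 of 10 members had a higher estimate. In mice 1 and 2 the median was 1.23 over the members and 0.032 over all genes, and in mice 3 and 4 it was -0.21 and 0.0065.

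The difference of the inhibitor effect between mice 3 and 4 and mice 1 and 2 was tested as an interaction over all 8 libraries, a test added after seeing the data. It was -1.97 (SE 0.25) for Soat1, -2.05 (SE 0.32) for Elovl3 and -2.26 (SE 0.35) for Scd1, each with an edgeR adjusted p of 0.103, and -2.82 (SE 0.56) for Mc5r with an adjusted p of 0.123. No gene passed this test (0%). An unadjusted p under 0.05 was found for 8 of 10 members (all but Fasn and Dgat2) and for 17.6% of all genes. Since the pairs of mouse numbers were divided with these values known, these counts are a description.

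**Figure D2:**
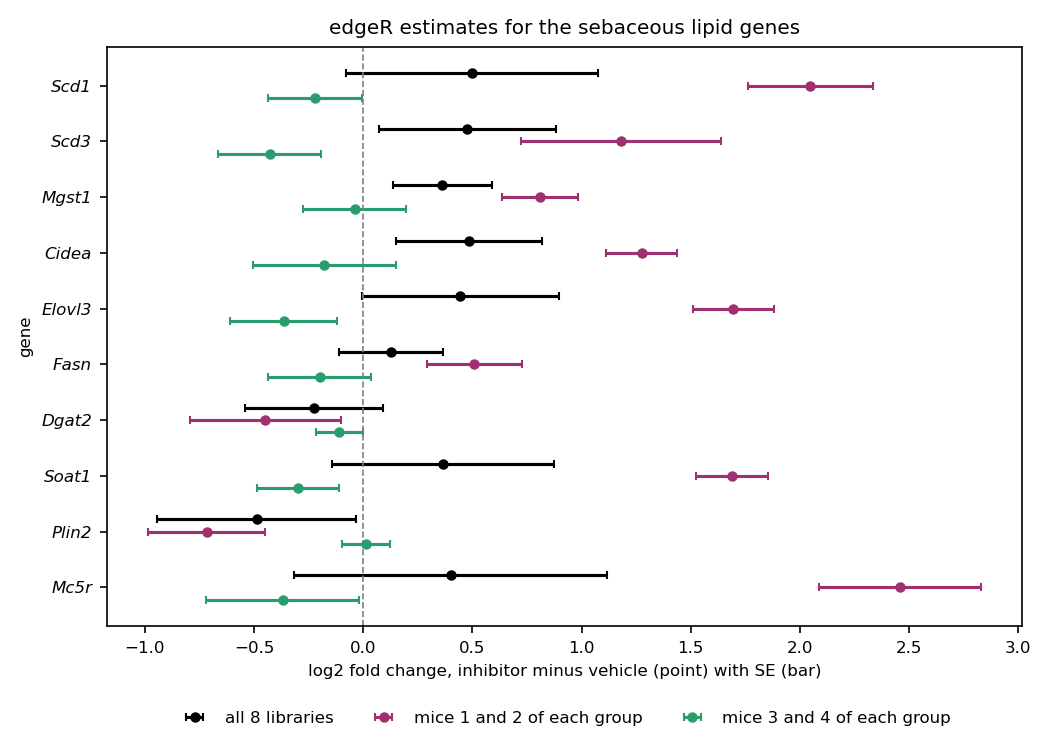
edgeR log2 fold changes of inhibitor minus vehicle (horizontal axis) for the 10 genes, with bars of 1 SE, from all 8 libraries (black), mice 1 and 2 of each group (purple) and mice 3 and 4 of each group (green). Purple points reach 2.46 for Mc5r and 2.05 for Scd1, while green points lie between -0.43 for Scd3 and 0.013 for Plin2.

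Other sebaceous gland genes were read from a list of 15, all tested, of which 0 passed in either direction. Their median log2 fold change was 0.23, with 11 higher and 4 lower estimates, and 0.64 among mice 1 and 2 and -0.27 among mice 3 and 4. Their summed level was 1055 and 1159 CPM in vehicle mice 1 and 2, 3052 and 2407 CPM in vehicle mice 3 and 4, and 1634 to 3312 CPM in the inhibitor libraries. For 8 of the 15, the 2 lowest libraries were vehicle mice 1 and 2, and for 2 these were the highest, beside 22% and 20.1% of all genes. The 3 with the smallest p were Prdm1 (log2 fold change -0.74, SE 0.45), a repressor with a role in sebaceous and differentiating epidermal cells, Elovl1 (-0.22, SE 0.14), an elongase of saturated fatty acids, and Pparg (0.42, SE 0.39), the nuclear receptor that drives sebocyte and fat cell differentiation. Pparg stood at 18.6 and 12.2 CPM in vehicle mice 1 and 2 and at 32.1 to 49.6 CPM in the other 6 libraries, whereas Prdm1 was highest in vehicle mice 1 and 2 at 25.1 and 38.3 CPM.

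**Figure D3:**
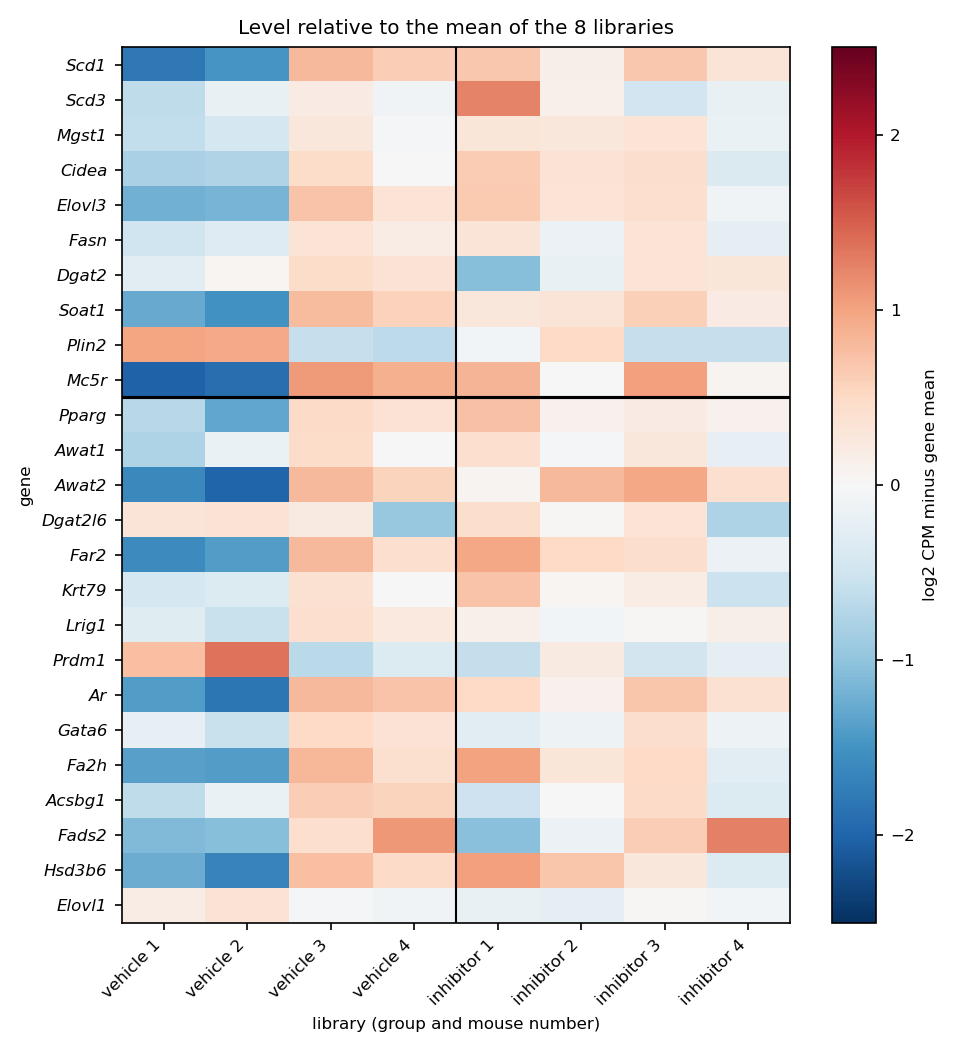
Log2(CPM + 0.1) minus the gene's mean over the 8 libraries (colour, red above and blue below the mean) for the 10 sebaceous lipid genes (above the line) and 15 other sebaceous gland genes (below), with libraries as columns. Vehicle mice 1 and 2 are blue for most genes, and Plin2, Prdm1 and, more weakly, Dgat2l6 and Elovl1 are red in both.

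Among 24 tested genes of fatty acid synthesis, elongation and desaturation, 0 passed the test, 18 had a higher estimate and the median was 0.22. Elovl1 again came first by p, followed by Hacd3, a dehydratase of the elongation cycle (0.299, SE 0.25), and Elovl4, the elongase of very long chains (0.399, SE 0.34), with 453 and 601 CPM in vehicle mice 1 and 2 against 720 to 1278 CPM in the other 6 libraries. For 15 of the 24, the 2 lowest libraries were vehicle mice 1 and 2, and for 3 these were the highest, beside 22% and 20.1% of all genes. Among 17 tested genes of triglyceride and wax ester synthesis, vehicle mice 1 and 2 were lowest for 6 and highest for 4. In this list 0 passed, 12 had a higher estimate and the median was 0.086. Its first genes were Far1 (0.15, SE 0.11), which makes fatty alcohols, Lpin2 (-0.504, SE 0.41), a phosphatidate phosphatase, and Gpat3 (-0.99, SE 0.80), a glycerol phosphate acyltransferase that stood at 22.1 and 31.1 CPM in vehicle mice 1 and 2, 17.8 CPM in inhibitor mouse 2 and 2.60 to 6.35 CPM in the other 5 libraries.

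Among 14 tested lipid droplet and lipolysis genes, 0 passed, 10 had a higher estimate and the median was 0.24. Vehicle mice 1 and 2 were lowest for 8 of these genes and highest for 0. The perilipins Plin5 (1.08, SE 0.54) and Plin4 (0.66, SE 0.58) and the droplet protein gene Fitm1 (1.14, SE 0.82) came first by p, and all 3 are also expressed in striated muscle or fat. Plin5 was barely detected, at 0.135 to 1.08 CPM with vehicle and 0.933 to 1.78 CPM with the inhibitor. Plin4 stood at 29.6 and 12.5 CPM in vehicle mice 1 and 2 and 42.5 to 109.8 CPM in the other 6 libraries, which is the reverse of Plin2. Among 16 lipogenic transcription factor genes, vehicle mice 1 and 2 were lowest for 8 and highest for 4. In this list 0 passed, 10 had a higher estimate and the median log2 fold change was 0.072. Cebpb, an activator of early fat cell and acute phase programmes, was at -1.22 (SE 0.67) on that scale, Ppard, a nuclear receptor for fatty acids, at -0.47 (SE 0.39), and Pparg came next. Both were highest in vehicle mice 1 and 2, at 249 and 391 CPM for Cebpb and 141 and 145 CPM for Ppard.

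Of the melanocortin genes beside Mc5r, 9 of 11 were in the table, 4 were tested and 0 passed. Mrap, an accessory protein of melanocortin receptors, had a log2 fold change of 1.02 (SE 0.49), Agrp, an antagonist peptide of the brain receptors, one of 0.49 (SE 0.605), and Mc1r, the receptor of pigment cells, one of 0.046 (SE 0.34). Agrp was barely detected, at 0.249 to 1.37 CPM over the 8 libraries. Mc1r stood between 2.25 and 6.22 CPM in all 8 libraries and lacked the low values of Mc5r in vehicle mice 1 and 2. Of the 5 other genes of the MAPEG family, to which Mgst1 belongs, 0 passed. Ltc4s, the leukotriene C4 synthase, had a log2 fold change of 0.71 (SE 0.296, edgeR adjusted p = 0.999), Mgst3 one of 0.39 (SE 0.31), and Ptges, the inducible prostaglandin E synthase, one of -0.62 (SE 0.55). Mgst3 was lowest in vehicle mice 1 and 2 at 27.7 and 31.1 CPM, while Ptges was highest there at 397 and 446 CPM.

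Markers of other cell types in the ear also differed between libraries, in several patterns, and their part in these results was not tested. The 5 basal keratinocyte markers summed to 12994 and 13284 CPM in vehicle mice 1 and 2, to 22187 and 24221 CPM in vehicle mice 3 and 4 and to 14364 to 22259 CPM with the inhibitor. Their sum was thus lowest in the low libraries of the gland genes. Vehicle mice 1 and 2 were the 2 lowest libraries for 2 of the 5 markers. Inhibitor mouse 4 was the lowest for Trp63 (147 CPM) and Col17a1 (581 CPM). The 5 differentiated keratinocyte markers summed to 176, 283, 2228 and 2530 CPM in vehicle mice 1 to 4. In inhibitor mice 1 to 4 they summed to 197, 651, 1610 and 1496 CPM. Inhibitor mouse 1, the lowest of these 4, was a library in which Scd1, Cidea and Elovl3 were high. None of the 6 neutrophil markers passed, and all 6 had a lower estimate, with summed levels of 130 to 3299 CPM with vehicle and 136 to 1789 CPM with the inhibitor. Mice 1 and 2 alone gave these markers a median log2 fold change of -1.47, and mice 3 and 4 alone 0.24. The 5 macrophage markers summed to 537 to 1389 CPM with vehicle and 288 to 2214 CPM with the inhibitor, and 4 of 5 had a higher estimate.

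Fat cells share several of these genes. The 10 adipocyte markers summed to 144 to 420 CPM with vehicle and 161 to 643 CPM with the inhibitor, with 9 of 10 higher estimates and 0 passing. Their highest library was inhibitor mouse 4, which was the lowest inhibitor library for Mgst1, Cidea, Elovl3, Fasn and Soat1. Inhibitor mouse 1, with 161 CPM of adipocyte markers, had the highest Cidea and Scd3 of the 8 libraries. Ucp1, the defining gene of brown fat, stood at 0.0509 to 2.62 CPM over the 8 libraries, and neither it nor Zic1 was among the genes tested. The other 3 of 5 brown fat markers were tested, with 2 higher estimates. Muscle markers summed to 282 to 1119 CPM with vehicle and 293 to 2386 CPM with the inhibitor, and all 6 had a higher estimate with 0 passing. The 5 cartilage markers summed to 72.4 to 412 CPM with vehicle and 52.1 to 554 CPM with the inhibitor, the 5 hair follicle markers in the table to 20.9 to 28.9 and 18.1 to 25.8 CPM. The 5 melanocyte markers summed to 42.1 to 58.1 CPM with vehicle and 20.9 to 37.3 CPM with the inhibitor, so these sums did not overlap, and all 5 had a lower estimate with 0 passing. Of all single genes tested, 0.457% were lower in every inhibitor library than in every vehicle library, and 54.5% had a higher estimate.

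The genes outside the list whose profile over the 8 libraries was most like the mean profile of the 10 members were Abcb8, Iqgap3, Abcd3, Pgrmc2, Bcat2 and Kif15. Likeness was the root mean square difference of the centred log2 CPM values, which was 0.077 for Abcb8 and 0.091 for Kif15. Among the members it was 0.16 for Mgst1 and 0.17 for Cidea, 0.53 for Scd1, 0.75 for Mc5r and 1.06 for Plin2. Abcb8, the closest, stood at 13.1 and 13.7 CPM in vehicle mice 1 and 2 and at 21.6 to 31.1 CPM in the other 6 libraries. Iqgap3, the next, stood at 10.9 and 11.2 CPM and at 18.2 to 28.9 CPM in the same order. Abcd3, a fatty acid transporter of peroxisomes, stood at 51.1 and 51.2 CPM in vehicle mice 1 and 2. It stood at 81.3 to 109.6 CPM in the other 6 libraries.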

How the data were processed

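Single-end 50-base reads of poly(A) RNA from 8 mouse ears were sequenced on a DNBSEQ instrument, per the labels' protocols. HISAT and GRCm39 are named in the submitters' processing notes, while the counter and gene models are not stated in the labels or file headers. The deposited estimated counts per gene were made by the authors, and 33.7% to 35.3% of values per library were not whole, so they were rounded. The TPM values are the authors' own, as deposited. Another 8 per-sample columns and 6 group columns were not used.

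Genes were filtered with filterByExpr, scaled by TMM and tested with edgeR 4.0.16 (quasi-likelihood, R 4.3.3) with Benjamini-Hochberg adjustment at 0.05. Alternatives used DESeq2 1.42.0, limma 3.58.1, other scalings and filters, log2(TPM + 1) and log2(TPM + 0.1), each library left out, a replicate block, and mice 1 and 2 or 3 and 4 alone. The tests were tried on simulated counts, drawn independently for each library. No simulated libraries stood apart within a group as vehicle mice 1 and 2 did, so the trial does not cover that structure. Same-numbered mice deviated together from their group means (correlations 0.397, 0.710, 0.673 and 0.682 over 15096 genes). Correlations between differently numbered mice were not computed, so whether the numbers pair the samples was not tested. The labels name no pairs, so the main fits did not pair the mice, and the replicate block was an alternative. The members and lists were chosen with earlier results of these data known. Named genes are all members, the 3 genes of each other lipid list with the smallest p, and the 6 genes most like the mean member profile. Ratios were compared by exact permutation. Counting 50-base windows shared between genes used GENCODE M21 transcripts, which may not be the authors' annotation.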

Additional observations from a re-analysis of the deposited data

Results flagged for a closer look

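In 3 of 56 groups of 4 libraries checked, 1 library lay far from the other 3 by Dixon's test at the 95% level, and chance flags about 1 in 20 such groups. Mgst1 stood at 301 CPM in inhibitor mouse 4 and at 409 to 429 CPM in the other inhibitor mice. The summed neutrophil markers stood at 1789 CPM in inhibitor mouse 2 and at 136 to 252 CPM in the other inhibitor mice. The summed melanocortin genes beside Mc5r stood at 50.9 CPM in vehicle mouse 4 and at 44.8 to 45.7 CPM in the other vehicle mice.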

How the results depend on the processing

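No gene was called under any of 19 alternatives. Among mice 3 and 4 only, the sign turned for 9 members, with log2 fold changes of -0.22 for Scd1, -0.43 for Scd3, -0.040 for Mgst1, -0.18 for Cidea, -0.36 for Elovl3, -0.200 for Fasn, -0.299 for Soat1, -0.37 for Mc5r and 0.013 for Plin2. With limma-voom quality weights it turned for Scd3 (-0.24), Fasn (-0.035), Mc5r (-0.010) and Plin2 (0.069). In that fit 6 of 10 members and 53.5% of all genes had a higher estimate. The median over members was 0.011 beside 0.012 over all genes, with Scd1 at 0.088, Soat1 at 0.014 and Elovl3 at 0.0076. Leaving out 1 library gave -0.018 to 0.68 for Scd3 (lowest without inhibitor mouse 1), -0.011 to 0.28 for Fasn (lowest without vehicle mouse 1) and -0.38 to 0.00033 for Dgat2 (highest without inhibitor mouse 1), and the sign held for the other 7 members, with 0.18 to 0.94 for Scd1, 0.22 to 0.54 for Mgst1, 0.31 to 0.78 for Cidea, 0.19 to 0.85 for Elovl3, 0.069 to 0.77 for Soat1, 0.056 to 0.90 for Mc5r and -0.79 to -0.23 for Plin2. The highest values of the first 6 came without vehicle mouse 3 and the lowest without vehicle mouse 1 (Soat1, without vehicle mouse 2), and those of Plin2 without vehicle mouse 1 and inhibitor mouse 2. The median over members was 1.23 in mice 1 and 2, -0.21 in mice 3 and 4, and 0.13 to 0.70 with 1 library left out. The cause of these changes was not tested. With the replicate block the median was 0.46 and Scd1 was at 0.90 (edgeR adjusted p = 0.717), and the block changed no call. The number of genes at an unadjusted p under 0.05 was 157 without the block and 724 with it. The median of all genes was 0.027 with TMM, 0.12 with library totals, 0.15 with log2(TPM + 1) and 0.17 with log2(TPM + 0.1). Under each, 8 of 10 members had a higher estimate, beside 54.5%, 70.5%, 75.8% and 75.9% of all genes in that order. With 4 mice a group and a biological coefficient of variation of 41%, the median SE over all genes was 0.259, and the members' intervals include both a fall and a rise.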

Other observations

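Other lipid genes of the lists, chosen here after their values were seen, had wide spreads among the vehicle ears. Acacb, the acetyl-CoA carboxylase of the mitochondrial surface, stood at 8.07 and 5.30 CPM in vehicle mice 1 and 2, 141 and 107 CPM in vehicle mice 3 and 4, and 68.4 to 140.2 CPM with the inhibitor. Elovl6, which lengthens palmitate, stood at 179 and 163 CPM in vehicle mice 1 and 2, 1514 and 1184 CPM in vehicle mice 3 and 4, and 793 to 1594 CPM with the inhibitor. The wax synthesis genes Far2 and Awat2 were also lowest in vehicle mice 1 and 2, at 136 and 156 CPM for Far2 and 2.22 and 1.65 CPM for Awat2. Dgat1, the other enzyme of the last step of triglyceride synthesis, was highest in vehicle mice 1 and 2, at 165 and 225 CPM, against 55.4 to 151.7 CPM in the other 6 libraries, whereas Dgat2 was not.

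Among melanocyte markers, Pmel, also chosen after its values were seen and a protein of the pigment granule, stood at 9.18 to 14.9 CPM with vehicle and 3.08 to 6.301 CPM with the inhibitor (log2 fold change -1.33, SE 0.29), lower in 4 of 4 inhibitor mice than in any vehicle mouse, as were 0.457% of all genes tested, and it did not pass the edgeR test over all genes (adjusted p = 0.999).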
